A study of Mus musculus with 2 samples.

Results

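The metallothioneins and the genes of zinc transport were examined in RNA from wild-type (WT) mouse bone marrow cells cultured with M-CSF alone (M) or with M-CSF and RANKL (MR). The 10 genes comprised the metallothioneins Mt1, Mt2 and Mt3, the metal-responsive transcription factor Mtf1, the zinc exporters Slc30a1 and Slc30a5, and the zinc importers Slc39a1, Slc39a6, Slc39a10 and Slc39a14. They were chosen for the rise of Mt3 in MR, so that every ratio of MR to M given for them is a description and supports nothing further. They were 10 of 14870 genes to which at least 1 assembled locus was given. All 10 had a locus in MR, 9 had one in M, and all 10 had a TPM (a transcript level scaled for gene length and library size) of at least 1 in at least 1 library.

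Both cultures were WT and had M-CSF, the growth factor of the macrophage lineage, from the start. MR also had RANKL, the cytokine that drives osteoclast differentiation, and the labels give 2 days with M-CSF followed by 2 days with M-CSF and RANKL. The methods of the study give a longer time with RANKL for the bone marrow culture, and the day on which RNA was taken, also from M, is not given in the sources used here. There was 1 library per condition, so that no difference between M and MR has a replicate check, and no p-value was computed. The age and sex of the mice and the number of animals behind each culture are not given either. No sorting of the cells is given, and fewer cells of a type and less RNA per cell cannot be told apart.

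Metallothioneins are small proteins rich in cysteine that bind zinc and copper and buffer free zinc in the cytosol. When free zinc rises, MTF-1 binds short metal response elements and turns on Mt1, Mt2 and the exporter gene Slc30a1. Exporters of the Slc30 (ZnT) family move zinc out of the cytosol, to the outside or into organelles, and importers of the Slc39 (ZIP) family move it into the cytosol. Mt1 and Mt2 are made in most tissues, whereas Mt3 is best known from brain.

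The coding sequences of the 3 metallothioneins show what sets Mt3 apart from the other two. They were read from GENCODE vM21 on GRCm38, 5′ to 3′, with cysteine codons in capitals. All 3 genes lie on the plus strand of chromosome 8, Mt3 at chr8:94152607-94154146 (ENSMUSG00000031760.9), Mt2 at chr8:94172664-94173568 (ENSMUSG00000031762.7) and Mt1 at chr8:94179082-94180327 (ENSMUSG00000031765.8).
Mt1-201: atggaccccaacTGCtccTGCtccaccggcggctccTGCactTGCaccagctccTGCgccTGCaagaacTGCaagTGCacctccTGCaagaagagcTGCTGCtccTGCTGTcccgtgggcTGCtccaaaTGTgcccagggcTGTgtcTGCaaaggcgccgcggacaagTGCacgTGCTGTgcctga
Mt2-201: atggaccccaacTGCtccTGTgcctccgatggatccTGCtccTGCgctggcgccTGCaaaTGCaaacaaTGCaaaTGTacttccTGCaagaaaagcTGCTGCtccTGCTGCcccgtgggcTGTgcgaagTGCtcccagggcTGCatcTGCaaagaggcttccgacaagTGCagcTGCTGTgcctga
Mt3-201: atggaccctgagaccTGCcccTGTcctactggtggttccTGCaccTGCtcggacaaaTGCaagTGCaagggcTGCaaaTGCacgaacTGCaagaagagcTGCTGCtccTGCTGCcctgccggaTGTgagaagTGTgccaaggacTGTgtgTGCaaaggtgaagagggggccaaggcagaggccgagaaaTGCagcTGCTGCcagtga
Each sequence held 20 cysteine codons. These were 20 of 61 sense codons (32.8%) in Mt1 and in Mt2, and 20 of 68 (29.4%) in Mt3. Mt1 and Mt2 had the same base at 79.6% of 186 aligned positions. Mt3 shared 73.7% of aligned positions with Mt1 and 75.3% with Mt2, with 21 further bases of its own, part of which encode the acidic insert for which the Mt3 protein is known. The longest identical stretch between Mt3 and Mt1 was 27 bases, and it was 20 bases for each of the other pairs, against reads of 150 bases. A whole read could therefore not match the coding sequences of 2 of these genes equally well.

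Mt3 had no assembled locus in M and 1 locus with a TPM of 4333 in MR. Its FPKM (fragment level per gene length and library size, as deposited) in MR was 1926 and its listed coverage was 5743 reads per base. This level had rank 14 among 13711 genes with a locus in MR. Depending on which coding transcript of Mt3 is taken, of 440 or 536 nt, the FPKM corresponds to about 8425 or 10263 read pairs. No fold was computed against M, because the tables list only what was assembled and a missing locus is not a count of 0. With a pseudocount of 1 TPM the log2 ratio was 12.08, a value that depends on the pseudocount and is no bound. For scale, the 5th percentile of TPM among the loci of M was 0.148. Genes with no locus in M were not rare in MR. They made up 7.92% of 13449 genes that passed the TPM filter of 1 and did not share their locus, which were 1065 genes. Of these, 121 had a TPM of at least 10 in MR, 15 had at least 100, and Mt3 alone had at least 1000. The genes without a locus in M whose MR level was nearest to that of Mt3 were Oscar, which encodes a co-stimulatory receptor of osteoclasts, with a TPM of 364.5, H2-Q1, a class I histocompatibility gene, with 300.02, and Dcstamp, which is needed for osteoclast fusion, with 280.4. The Mt3 level was 11.9, 14.4 and 15.5 times theirs. This distance holds only among genes without a locus in M, and the 10 genes were chosen for the rise of Mt3. Of the osteoclast markers with a locus in M, Mmp9 was at 11.4 TPM in M and 5159 in MR, and Acp5 at 51.9 and 4947. The likeness of Oscar, H2-Q1 and Dcstamp to Mt3 rests on 1 level in each of 2 libraries.

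Mt1, the metallothionein with the highest level in M, was at 69.9 TPM in M and 370.1 TPM in MR. The ratio was 5.29, with a 95% Wilson interval of 4.56 to 6.14 that covers counting error only. Mt1 had rank 2100 of 13333 genes with a locus in M and rank 421 in MR. Mt2 was at 2.42 TPM in M and 119.02 TPM in MR, a ratio of 49.2 with a counting interval of 20.8 to 116.3. The wide interval follows from the M value, which corresponds to about 5.25 read pairs for the shortest coding transcript of 388 nt, against 204.1 read pairs in MR. Mt2 moved from rank 11314 in M to rank 1367 in MR. The fourth metallothionein gene, Mt4, which is known from stratified squamous epithelium, had no locus in M and a TPM of 0.754 with a coverage of 1.00 in MR, below the TPM filter of 1.

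The 3 metallothioneins that passed the filter were all higher in MR, as were 59.5% of all 13449 genes tested. Mt3 passed the filter through MR alone, and the genes were chosen for its rise, so that this count supports nothing. The make-up of the summed level of the metallothioneins differed between the libraries. The sum over Mt1 to Mt4 was 72.3 TPM in M, or 0.00723% of the library, and 4823 TPM in MR, or 0.482%. In M, Mt1 held 96.7% of the sum and Mt2 3.34%. In MR, Mt3 held 89.8%, Mt1 7.67% and Mt2 2.47%. The level of Mt1 was 28.9 times that of Mt2 in M and 3.11 times in MR. The plot of the levels in both libraries shows the 3 metallothioneins beside the other genes.

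**Figure D1:**
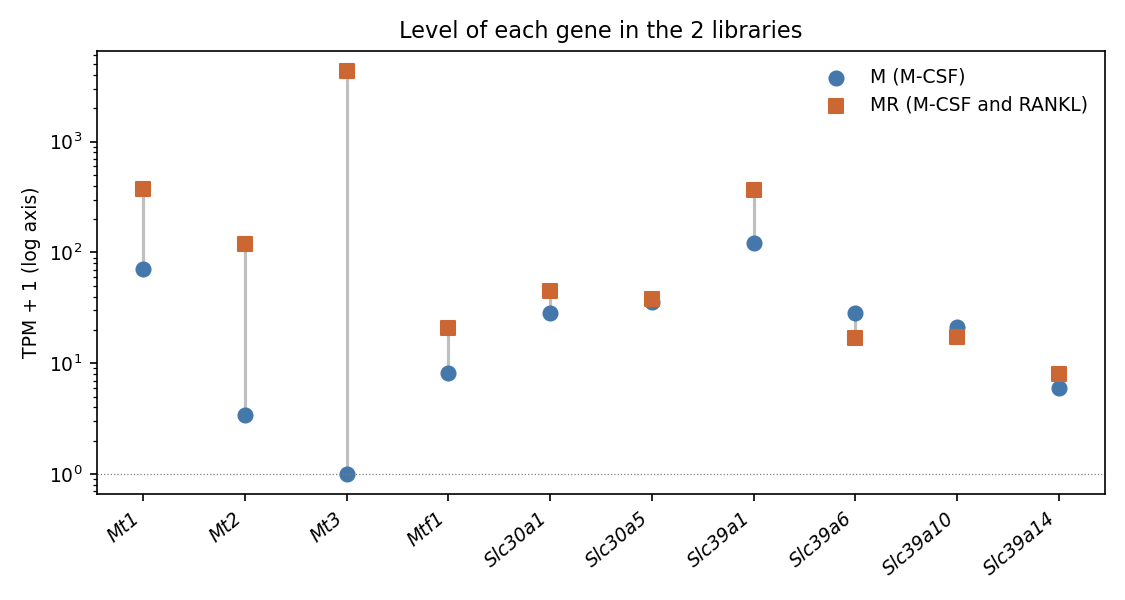
Level of each of the 10 genes in M (circles) and MR (squares) as TPM plus 1 on a log axis, 1 library per condition, with a line joining the values of a gene. Mt3 has no locus in M and stands at 1 there, against 4333 TPM in MR, while the symbols of Slc30a5, at 34.7 and 37.1 TPM, nearly coincide.

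The same 4 genes lie side by side in one cluster in the order Mt4, Mt3, Mt2 and Mt1, so the loci around them were examined. In MR the Mt3 locus extended from 94152736 to 94154123, which left 129 bases of the annotated gene uncovered at the 5′ end and 23 at the 3′ end, and it held 85.7% of the exon bases. It started 10 bases before the annotated start of the transcripts Mt3-202 and Mt3-203, at 94152746. The Mt1 locus ended at 94180327 in both libraries and started at 94179139 in M and at 94179091 in MR. The Mt2 locus extended from 94172796 to 94173511 in M, with 67.9% of the exon bases, and from 94172709 to 94173554 in MR, with 90.0%. The antisense gene Gm45774 shares 432 bases, or 73.5%, of the exon bases of Mt2 and had no locus in either library. Both Mt2 loci were assembled with the strand of Mt2, and reads of the 2 strands cannot be told apart further in these tables. Of the 7 other protein-coding genes within 200 kb of Mt3, 5 passed the filter, and their log2 ratios lay between -0.42 (Ogfod1, at 10.4 TPM in M and 7.53 TPM in MR) and 0.65 (Nup93, 33.4 and 53.2). None of the 5 passed a log2 ratio of 1 or -1, whereas 21.3% of all 13449 genes tested lay above 1 and 13.2% below -1. Gnao1 and Slc12a3, the outermost of the 7, had no locus in either library. The map of the loci by distance from Mt3 shows the cluster.

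**Figure D2:**
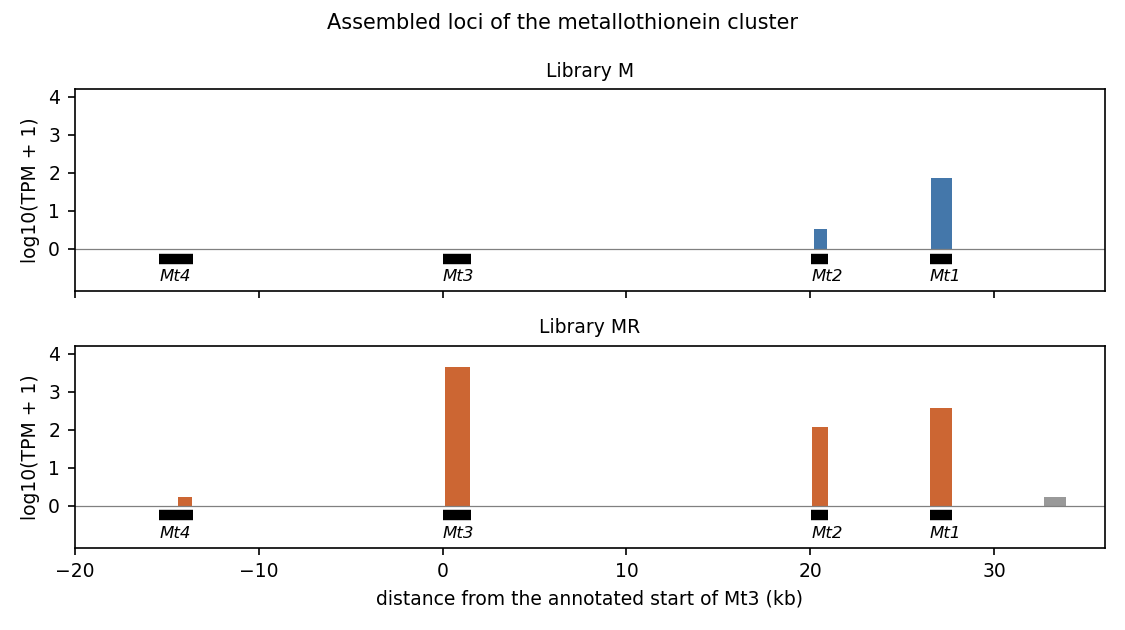
Assembled loci around the metallothionein cluster in M (upper) and MR (lower), by distance in kb from the annotated start of Mt3, with bar height log10(TPM + 1) and black bars for the annotated genes. M has loci over Mt2 and Mt1 alone, whereas MR has a locus over each of the 4 genes, the highest over Mt3, and 1 locus with a TPM of 0.754 given to no gene (grey).

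To show the sequence in front of these genes, the 250 bases before the RefSeq start are given for Mt1, Mt2, Mt3 and Slc30a1, the genes whose regulation by metal is best known or whose level differed most. The sequences are from RefSeq on GRCm38.p6, plus strand, 5′ to 3′, and capitals mark the core of the metal response element, searched as TGCACNC and TGCGCNC on both strands. Their positions are chr8:94178839-94179088 for Mt1, chr8:94172368-94172617 for Mt2, chr8:94152357-94152606 for Mt3 and chr1:191906531-191906780 for Slc30a1.
Mt1 promoter: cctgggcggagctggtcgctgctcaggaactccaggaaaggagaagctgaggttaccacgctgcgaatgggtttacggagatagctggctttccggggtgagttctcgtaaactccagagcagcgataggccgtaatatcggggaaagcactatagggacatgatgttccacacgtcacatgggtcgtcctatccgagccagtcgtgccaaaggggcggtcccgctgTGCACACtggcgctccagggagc
Mt2 promoter: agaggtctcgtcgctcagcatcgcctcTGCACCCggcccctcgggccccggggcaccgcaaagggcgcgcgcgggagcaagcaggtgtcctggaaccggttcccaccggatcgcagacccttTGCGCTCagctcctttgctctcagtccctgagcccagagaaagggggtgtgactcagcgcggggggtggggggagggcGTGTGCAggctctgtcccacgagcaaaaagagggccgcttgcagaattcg
Mt3 promoter: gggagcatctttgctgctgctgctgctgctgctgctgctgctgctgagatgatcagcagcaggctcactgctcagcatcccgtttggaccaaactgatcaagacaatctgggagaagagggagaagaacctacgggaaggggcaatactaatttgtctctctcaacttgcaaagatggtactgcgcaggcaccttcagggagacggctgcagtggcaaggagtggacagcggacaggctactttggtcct
Slc30a1 promoter: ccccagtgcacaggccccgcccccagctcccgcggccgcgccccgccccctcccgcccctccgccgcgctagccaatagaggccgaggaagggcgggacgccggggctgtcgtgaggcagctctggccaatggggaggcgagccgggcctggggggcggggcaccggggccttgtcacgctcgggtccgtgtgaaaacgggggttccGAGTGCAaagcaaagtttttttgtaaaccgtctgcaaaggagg
The core occurred 1 time for Mt1, 3 times for Mt2, 0 times for Mt3, and 1 time each for Slc30a1 and Slc30a5. Each count holds for its window only. Coding transcripts of Mt1 and Mt2 also start downstream of theirs, at 94179211 (Mt1-203) and 94172860 (Mt2-202). It was not found for Mtf1, for Slc39a1 or in either window of Slc39a10. Of 32851 RefSeq promoters of this length, 21.4% held at least 1 core, 5.17% at least 2 and 1.26% at least 3. RefSeq promoters were matched for 8 of the 10 genes, and Slc39a6 and Slc39a14 had none. The NFAT core GGAAA, searched on both strands because Nfatc1 is the master factor of osteoclasts, occurred 3 times for Mt1, 1 time each for Mtf1 and for 1 of the 2 windows of Slc39a10, and 0 times for Mt2, Mt3, Slc30a1, Slc30a5 and Slc39a1, against at least 1 in 55.6% of all promoters. The AP-1 letters TGAGTCA, likewise on both strands, occurred 1 time for Mt2 and for no other of the 8 genes, against 4.46% of all promoters.

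The windows change when they are set by the assembled loci, because these started inside the annotated genes. The Mt3 locus of MR started 129 bases after the RefSeq start, and the 250 bases before it held 3 metal response cores, on chromosome 8 at chr8:94152626-94152648, chr8:94152653-94152675 and chr8:94152685-94152707. They are shown with 8 bases on either side, because all 3 lie within the annotated first exon of Mt3-201 and upstream of the assembled start.
Mt3 site 102 bases before the locus: gacagcagTGCACACacacggag
Mt3 site 75 bases before the locus: ggcgctgtGCGTGCAtaggggcg
Mt3 site 43 bases before the locus: tcgctgctTGCGCGCccccgcct
The same windows before the assembled starts held 5 cores for Mt2 in both libraries, and 3 for Mt1 in M and 1 in MR. The cores of Mt1 in M included those within chr8:94179083-94179105 and chr8:94179101-94179123, which lie past the RefSeq window of Mt1. In these windows the NFAT core occurred 0 times for Mt3 and Mt2, and for Mt1 2 times in M and 3 times in MR. The AP-1 letters occurred 1 time, for Mt2 in MR. The shares over all promoters given above are for RefSeq windows. They do not apply here, so the 3 cores of Mt3 cannot be called many or few. A match describes letters only, and the start of an assembled locus depends on the reads at hand and is not a mapped transcription start. The quantitative PCR primers for Mt3 were located by their sequences, gggaggaaccaagctacgg (chr8:94152764-94152782, exon 1) and tgcacttgcatttgtccgag (chr8:94153041-94153060, exon 2, minus strand). All 19 and 20 bases of these primers lie inside the MR locus and match each of the 3 coding transcripts of Mt3. The primers span a part of exons 1 and 2, whereas the locus extends on to 94154123. The study reports its PCR of Mt3 for cultured hematopoietic progenitors from embryos, WT and without the Nfatc1 short form. These are other cells than the bone marrow cultures read here.

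Mtf1, which encodes the zinc sensor MTF-1 (chr4:124802104-124849800, plus strand), was at 7.17 TPM in M and 19.8 TPM in MR. The log2 ratio was 1.35 and the ratio 2.77, with a counting interval of 2.42 to 3.17, but this value rests on how the locus was assembled. M had 1 locus with 90.4% of the exon bases. MR had 2 loci, the first with 36.5% of the exon bases and a TPM of 13.3, the second, without a strand, with 56.3% and a TPM of 6.50. Because TPM is scaled to length, summing 2 pieces of a gene counts the same transcripts more than once. The listed coverage of Mtf1 was 11.96 in M against 9.98 in MR, and the log2 ratio of coverage per aligned Gb was 0.017. With the locus of most exon bases alone the log2 ratio was -0.12. No direction is therefore given for Mtf1. The overlapping gene 1110065P20Rik on the other strand shares 721 exon bases (8.09%) and was at 9.05 TPM in M and 18.4 TPM in MR.

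Of the exporters, Slc30a1, which encodes the zinc exporter of the cell surface (chr1:191906767-191913247, plus strand), was at 27.7 TPM in M and 43.8 TPM in MR. The ratio was 1.58, with a counting interval of 1.44 to 1.73, and the locus held 99.3% of the exon bases in M and 99.4% in MR. The antisense gene 1700034H15Rik, which shares 468 exon bases with it, had a TPM of 1.32 in M and no locus in MR. Slc30a5, an exporter into the secretory pathway (chr13:100802648-100833427, minus strand), was at 34.7 TPM in M and 37.1 TPM in MR, and the counting interval of its ratio, 0.951 to 1.20, included 1. Across the Slc30 family, 6 of 10 genes had a locus and passed the filter. All 6 were higher in MR, of which Slc30a5 and Slc30a6 turned lower, to -0.092 and -0.035, with median-of-ratios scaling, and Slc30a6 also by coverage per aligned Gb, to -0.16. As reported, the log2 ratios lay between 0.09 (Slc30a5) and 0.68 (Slc30a9, 24.9 and 40.6 TPM). None passed 1, as 21.3% of all genes tested did. Their median log2 ratio was 0.49, beside 0.21 over all 13449 genes tested, of which 59.5% were higher in MR. Slc30a7, a transporter of the Golgi apparatus, had 12.1 and 17.8 TPM. Slc30a4 had 2.50 and 3.81, and Slc30a6, the partner of Slc30a5, had 12.6 and 14.0. Slc30a2, Slc30a3, Slc30a8 and Slc30a10 had no locus in either library, nor had Tmem163, a zinc transporter outside the family. The summed level of the exporters was 114.6 TPM in M and 157.1 TPM in MR, which is a ratio of 1.37.

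Of the importers, Slc39a1, which encodes the surface transporter ZIP1 (chr3:90248172-90253612, plus strand), was at 119.8 TPM in M and 366.0 TPM in MR. The ratio was 3.06, with a counting interval of 2.88 to 3.24, from values that correspond to about 1585 and 3824 read pairs. Slc39a1 had rank 1218 in M and rank 428 in MR. Slc39a6, which encodes ZIP6, a transporter of the plasma membrane (chr18:24579881-24603817, minus strand), was lower in MR, at 27.5 TPM in M and 16.0 TPM in MR. Its ratio was 0.584, with a counting interval of 0.506 to 0.673. Slc39a10, which encodes ZIP10, the partner of ZIP6 (chr1:46807544-46892852, minus strand), was at 20.3 TPM in M and 16.4 TPM in MR, a ratio of 0.808 with a counting interval of 0.713 to 0.916. Its loci held 60.8% of the exon bases in M and 81.0% in MR and started near the annotated start of the transcript Slc39a10-201, at 46854046. Its log2 ratio was -0.29 by TPM and -0.74 by listed coverage per aligned Gb. Slc39a14, which encodes ZIP14, an importer of zinc and of iron (chr14:70303469-70351425, minus strand), had 4.98 TPM in M and 6.97 TPM in MR, which is a ratio of 1.40 with a counting interval of 1.11 to 1.76. These 4 importers therefore differed in direction, with Slc39a1 and Slc39a14 higher in MR and Slc39a6 and Slc39a10 lower.

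Across the Slc39 family, 12 of 14 genes had a locus and passed the filter, 6 higher in MR and 6 lower, with a median log2 ratio of 0.02 that lay between -0.15 and 0.22 in the alternatives. Slc39a1 and Slc39a13 passed a log2 ratio of 1, and Slc39a2 passed -1. Of the 12 genes 16.7% thus lay above 1, beside 21.3% of all genes tested, of which 13.2% lay below -1. Slc39a13, which encodes ZIP13, a transporter of intracellular membranes in which mutations cause a connective tissue and skeletal disease, was at 18.9 TPM in M and 146.3 TPM in MR. Its ratio was 7.72, with a counting interval of 6.78 to 8.80. The Slc39a13 locus in M extended 11711 bases past the annotated 5′ end, whereas in MR it ended 114 bases inside, and reads of the extension enter the M value. Slc39a13 shares 215 exon bases with Psmc3, a proteasome gene of the other strand, which was at 146.8 TPM in M and 145.3 TPM in MR. Slc39a2 had 5.29 TPM in M and no locus in MR. Slc39a7, a transporter of the endoplasmic reticulum with the highest level of the family in M, had 124.3 and 146.2 TPM, and Slc39a9 had 15.6 and 25.02. Slc39a8, which encodes ZIP8, had 6.85 and 4.06, Slc39a3 27.0 and 21.6, and Slc39a4 4.66 and 3.95. Slc39a11 had 26.6 and 35.5 TPM, while its listed coverage was 41.1 in M against 2.07 in MR, and its direction differs between these units. By coverage per aligned Gb, Slc39a3 and Slc39a4 also turned, to 0.99 and 0.17. Slc39a4 turned to 0.20 with the locus of most exon bases alone, and Slc39a8 to 0.11 with stranded loci only. Slc39a5 and Slc39a12 had no locus in either library.

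The summed level of the importers was 401.7 TPM in M and 788.0 TPM in MR, which is a ratio of 1.96. Slc39a1 accounted for 63.7% of the difference of 386.3 TPM and Slc39a13 for 33.0%. The Slc39a13 value in M is from the locus that extends past the gene, so its share and the ratio of the sums rest on unlike loci. Without these genes the sums were 263.0 and 275.7 TPM. The share of the sum held by Slc39a1 was 29.8% in M and 46.4% in MR, and that held by Slc39a13 was 4.71% and 18.6%.

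Of the 10 genes, 6 were higher in MR and 2 were lower, and no direction is given for Mtf1 and Slc30a5, whose reported values were above 0 but turned in an alternative. A log2 ratio above 1 was found for 5 of them, namely Mt1, Mt2, Mt3, Slc39a1 and, by the sum of its 2 pieces, Mtf1, and one below -1 for 0 of them. Over all genes tested these shares were 21.3% and 13.2%, which are printed for scale only, since the genes were chosen on the same comparison. Of the 24 Slc30 and Slc39 genes, 18 passed the filter, 12 were higher in MR, 2 passed 1 and 1 passed -1, with a median log2 ratio of 0.32. The plot of all measured pathway genes shows these ratios beside the middle 50% of all genes.

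**Figure D3:**
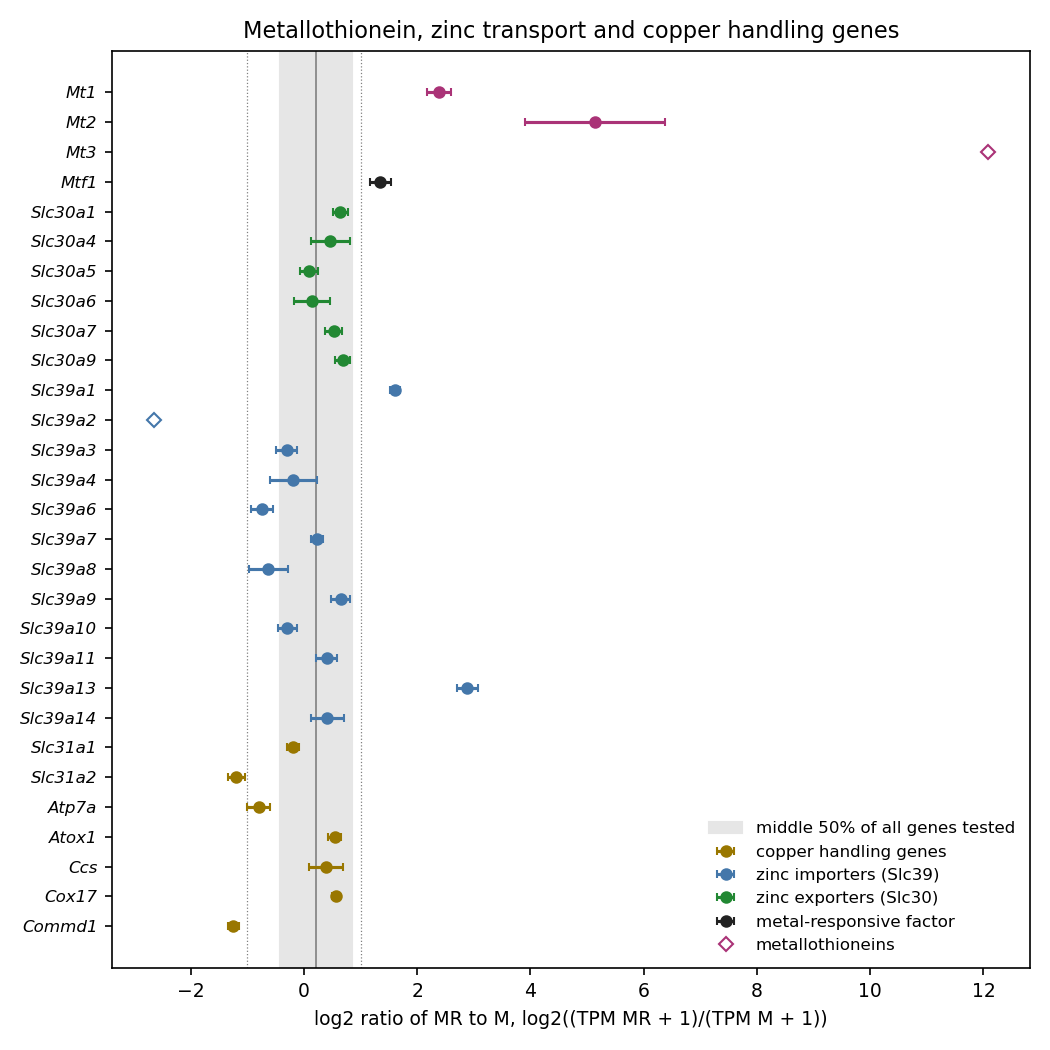
Log2 ratio of MR to M, with 1 added to each TPM, for the measured metallothionein, zinc transport and copper handling genes, 1 library per condition. Error bars are 95% counting intervals, open diamonds are genes with no locus in 1 library, the grey band from -0.42 to 0.84 holds the middle 50% of all genes tested, the grey line is their median and dotted lines mark -1 and 1. Mt3, Mt2, Slc39a13, Mt1, Slc39a1 and, by the sum of its 2 loci in MR, Mtf1 lie above 1, and the exporters lie within or close to the band.

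The labels were checked by marker genes. All 10 osteoclast genes examined had a log2 ratio above 1, among them Acp5, the TRAP enzyme, with 51.9 TPM in M and 4947 in MR, and Ctsk, the collagen-degrading protease, with 53.1 and 12867. The 8 monocyte and macrophage genes had a locus in both libraries, with a sum of 21452 TPM in M and 7963 in MR, and 4 of them had a log2 ratio below -1. Most of the sum was Lyz2, from a locus shared with another gene, with 16035 TPM in M and 4535 in MR. The log2 ratios of Csf1r, Cd68, Itgam and Cd14 lay between -1 and 1. All 9 neutrophil genes had a locus in both libraries, with a sum of 1387 TPM in M and 967.9 in MR. The sums of the mast cell and basophil, B cell, T cell, erythroid and stromal lists lay between 3.35 and 17.9 TPM in M and between 1.11 and 23.5 in MR, so both cultures held few transcripts of these cells. Of the markers of astrocytes and neurons, in which Mt3 is best known, Gfap, Aqp4, Snap25 and Syt1 had no locus in either library, and the list summed to 1.04 TPM in M and 0 in MR. The metallothioneins and the osteoclast list were both higher in MR, as were 59.5% of all genes tested. With 1 library per condition this links neither to the other. The part of the make-up of the cultures in the metallothionein levels was not tested.

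The ratios were recomputed with other units, scalings and rules for the loci. The log2 ratio lay between 2.20 and 2.40 for Mt1, between 4.67 and 5.56 for Mt2, between 1.41 and 1.61 for Slc39a1 and between -0.92 and -0.74 for Slc39a6. These genes kept their direction and their side of a log2 ratio of 1 in all 8 alternatives, as did Slc30a1, between 0.46 and 0.66, Slc39a14, between 0.14 and 0.48, and Slc39a10, between -0.74 and -0.29. The rules for the loci could not change these genes, because each had 1 locus with a strand in each library. Those alternatives returned the reported values, and only the other units and scalings could move them. For Slc30a5 the direction turned, to -0.092, with median-of-ratios scaling, which divides the MR to M ratio by 1.14 (a log2 shift of 0.19 before the pseudocount), and to -0.0066 after leaving out mitochondrial genes and the 20 genes of highest level, and no direction is given for it. The plot of the alternatives shows these values by gene.

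**Figure D4:**
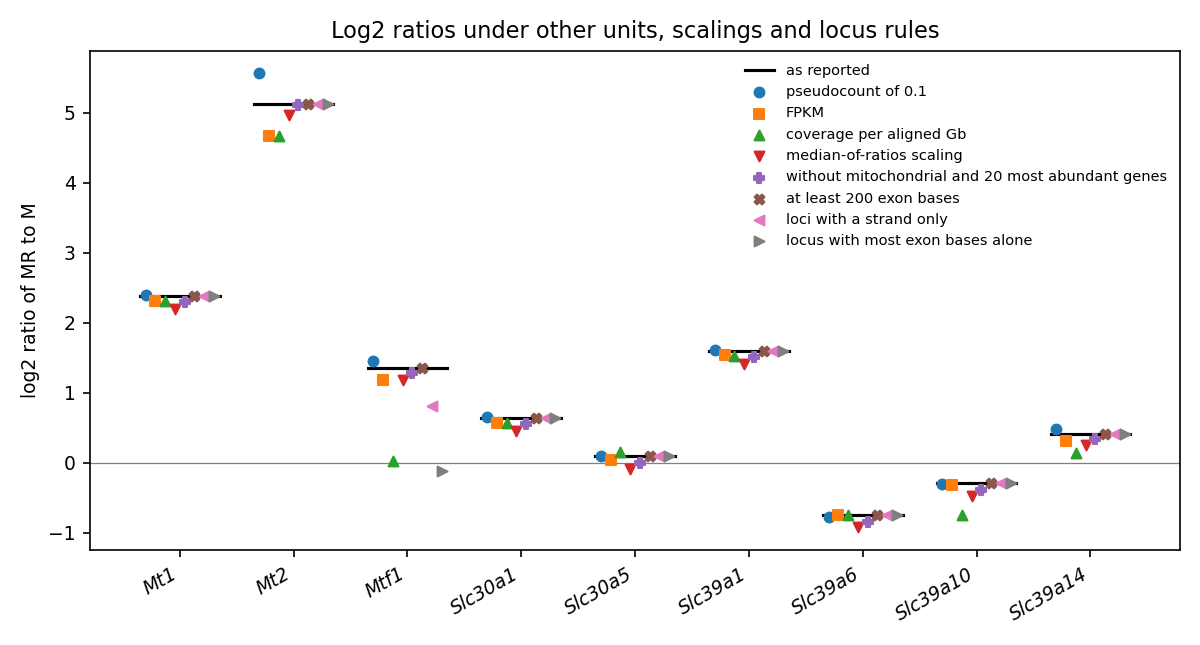
Log2 ratio of MR to M for the 9 genes with a locus in both libraries, as reported (black lines) and under 8 other units, scalings or locus rules (symbols). Mt1, Mt2 and Slc39a1 stay above 1 throughout, Mtf1 spreads from -0.12 to 1.46, and Slc30a5 lies on either side of 0.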

How the data were processed

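Per the labels and the methods, the authors trimmed adaptors with Trim Galore, mapped reads to mm10 (GRCm38) with HISAT2 and ran StringTie on GENCODE vM27 (tool versions not given in the sources used here). The authors deposited, for each entry, a TPM, an FPKM and a coverage (signal per base that is not scaled for depth). The TPM of assembled loci sums to 1000000 per library, and entries with gene names add 87234 in M and 129264 in MR. These entries carry GRCm39 positions and were not used.

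Each of 19422 loci in M and 19922 in MR was assigned to whichever GENCODE vM21 gene had most exon bases inside the locus, with 50 as the minimum, on its strand or without a strand, which covered 95.4% and 96.9% of TPM. A locus with at least 50% of the exon bases of a second coding gene was called shared. TPM was summed per gene, and the log2 ratio of MR to M used a pseudocount of 1 TPM, which understates the difference of low genes, and a filter of 1 TPM in a library. With 1 library per condition no test was made.

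Aligned bases, 3.63 Gb in M and 2.98 Gb in MR, follow from the commonest value of coverage per unit of FPKM. Read pairs were estimated from FPKM, transcript length (the shortest coding transcript for metallothioneins, otherwise the longest) and 300 bases per pair, and gave the 95% Wilson intervals of ratios.

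The genes named are the 10 genes, the other metallothionein, Slc30, Slc39 and copper handling genes, the coding neighbours of Mt3 within 200 kb, the 3 genes nearest to Mt3 in level, and markers. These genes and all lists were chosen with earlier results of these data known. The assignment was tested on simulated loci, 1 per gene, each with its strand and spanning nearly the whole annotated gene. Split, extended and strandless loci were not simulated, so the test does not cover them. Python 3.11.15, numpy 2.4.6, pandas 2.3.3, scipy 1.17.1, matplotlib 3.10.9 and biopython 1.88 were used.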

Additional observations from a re-analysis of the deposited data

Results flagged for a closer look

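A locus on the plus strand inside Slc39a14, whose gene lies on the minus strand, was given to no gene and entered no comparison. It extended over chr14:70316188-70320063 in both libraries, overlapped 2753 exon bases of Slc39a14, and was at 0.169 TPM in M and 0.462 TPM in MR. It was singled out because it is a signal outside the values reported for the gene, higher in MR than in M, at levels below the TPM filter of 1.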

How the results depend on the processing

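Of 130 values recomputed under single alternatives, 108 stayed within the tolerance set for them, 20 moved and 2 reversed. The tolerance was wide, a factor of 1.5 for the counts of genes and the spread of the genes for the medians of lists. A minimum of 200 exon bases left each value it was applied to unchanged. The 108 are therefore no measure of how firm the values are. Some of the 108 changed sign, namely Slc30a5 at -0.0066 after leaving out mitochondrial genes and the 20 genes of highest level, and the medians named below. The log2 ratio of Mt3, which depends on the pseudocount because M has no locus, was 15.40 with a pseudocount of 0.1, 10.91 with FPKM, 10.91 with coverage per aligned Gb, 11.99 with median-of-ratios scaling and 12.31 after leaving out mitochondrial genes and the 20 genes of highest level. That of Mtf1 was 0.017 with coverage, 0.81 with stranded loci only and -0.12 with the locus of most exon bases alone. With median-of-ratios scaling over 11703 genes, Slc30a5 turned to -0.092, and Slc30a1 was 0.46, Slc39a1 1.41 and Slc39a10 -0.47. With coverage Slc39a1 was 1.52 and Slc39a10 -0.74, and without the most abundant genes Slc39a1 was 1.504. The genes above a log2 ratio of 1 and below -1, 2858 and 1781, numbered 1599 and 981 at 10 TPM or more, 1793 and 1100 with a locus in both libraries, and 956 and 520 at a log2 threshold of 2, and 1893 were higher with coverage. With median-of-ratios scaling they numbered 2436 and 2141, so that 53.2% of the genes past either limit were higher, against 61.6% as reported. The cause of these changes was not tested, and the stricter rules leave fewer genes to count by construction. The medians of the 4 gene lists stayed within the spread of their genes in all 8 alternatives, but 2 of them changed sign. That of the importers was -0.15 with median-of-ratios scaling, -0.077 without the most abundant genes and -0.011 with FPKM, and that of the copper genes was 0.32 with coverage.

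No paired analysis was possible because each condition had 1 library, and for the same reason no library was left out. The depth limits Mt2 most, with about 5.25 read pairs in M, and the absence of a locus for Mt3 in M does not show that no reads were there.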

Other observations

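Metallothioneins also bind copper, and the genes of copper handling were therefore read in the same libraries. Of 8 such genes, 7 passed the filter, 3 were higher in MR, 0 had a log2 ratio above 1 and 2 had one below -1, with a median of -0.19 beside 0.21 over all genes tested. Of all genes tested, 21.3% lay above 1 and 13.2% below -1. With coverage per aligned Gb in place of TPM, 5 of the 7 were higher, 1 lay above 1 and 0 lay below -1. The median was then 0.32, since Slc31a1 and Commd1 turned to 0.14 and 2.43. Slc31a1, which encodes the copper importer CTR1, was at 69.9 TPM in M and 61.2 TPM in MR. Slc31a2, which encodes the related transporter CTR2, had 130.1 and 56.2, a log2 ratio of -1.20. Atp7a, the copper pump of the secretory pathway, had 18.8 and 10.3, a log2 ratio of -0.80, and Atp7b had no locus in either library. Atox1, the chaperone that hands copper to these pumps, had 384.0 TPM in M and 560.2 in MR, and Ccs, the chaperone for superoxide dismutase, had 27.5 and 36.4. Cox17, the chaperone for cytochrome oxidase, had 185.0 and 272.6, and Commd1 had 151.2 and 63.2, both from a locus shared with another gene. The summed level of the copper genes was 966.5 TPM in M and 1060 TPM in MR, which is a ratio of 1.10, against 1.37 for the zinc exporters and 1.96 for the zinc importers. The importer ratio includes the extended Slc39a13 locus of M.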
